A study of Mus musculus with 6 samples.

Results

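Dhh and 7 further genes of the Hedgehog pathway, namely Ptch1, Smo, Gli1, Gli2, Gli3, Hhip and Sufu, were followed in polyadenylated RNA of whole testes of E16.5 mouse fetuses. They were chosen by gene symbol for their place in the pathway, and all 8 were found among the 42747 rows of the count table. The series design counts 3 mice labelled cKO and 3 labelled WT, with 1 library from each. The title of the series places the gene under study, the kinase CK1α encoded by Csnk1a1, in Sertoli cells, so cKO was read as a conditional knockout of that gene. The sources used here do not give the strain, the allele, the promoter that drives recombination or what the WT mice carried.

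Desert hedgehog (Dhh) is the Hedgehog ligand of the testis, secreted by Sertoli cells inside the cords. It acts on cells around and between the cords, where binding to the receptor Patched 1 (Ptch1) releases Smoothened (Smo), and Smoothened in turn lets the transcription factors Gli1, Gli2 and Gli3 activate their targets. Ptch1, Gli1 and the ligand-binding inhibitor Hhip are themselves widely used as targets that report the pathway, and Sufu holds Gli proteins back. Mice without Dhh have too few fetal Leydig cells, the androgen-producing cells, and disordered peritubular myoid cells, the contractile cells that wrap the cords. CK1α is known to phosphorylate Gli proteins and Smoothened.

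Of the 8 genes, Dhh, Ptch1 and Hhip fell in cKO testes and none rose. All 8 passed the filter on low counts. Of all 18383 tested genes 1.84% were lower and 1.5% higher at an adjusted p under 0.05 (quasi-likelihood test of edgeR, adjusted over all tested genes by Benjamini-Hochberg, as for every edgeR adjusted p below). DESeq2 and limma-voom called the same 3 genes, where they called 6.93% and 3.28% of all genes they tested. The ligand and the inhibitor Hhip differed by nearly the same factor, 2.94-fold each, and the receptor by 1.82-fold. Gli1, the remaining widely used target, and the transducers Smo, Sufu, Gli2 and Gli3 were not called. In the RNA of a whole organ, fewer cells of a type and less RNA per cell cannot be told apart.

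The 250 bases before the transcription start are shown for the 3 genes that fell, as RefSeq gives them on GRCm38.p6, a build other than the C57BL/6NJ one of the count table. Each sequence is read 5′ to 3′ on the gene's own strand, which is the minus strand in all 3, and capitals mark GC boxes (GGGCGGG or its reverse complement CCCGCCC). The windows are chr15:98898541-98898790 for Dhh, chr13:63565736-63565985 for Ptch1 and chr8:80058009-80058258 for Hhip.
Dhh: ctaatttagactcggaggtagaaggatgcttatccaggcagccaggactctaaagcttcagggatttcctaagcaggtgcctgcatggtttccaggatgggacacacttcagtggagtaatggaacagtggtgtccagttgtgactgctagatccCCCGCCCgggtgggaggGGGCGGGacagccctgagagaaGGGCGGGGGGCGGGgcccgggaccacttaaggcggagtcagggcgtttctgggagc
Ptch1: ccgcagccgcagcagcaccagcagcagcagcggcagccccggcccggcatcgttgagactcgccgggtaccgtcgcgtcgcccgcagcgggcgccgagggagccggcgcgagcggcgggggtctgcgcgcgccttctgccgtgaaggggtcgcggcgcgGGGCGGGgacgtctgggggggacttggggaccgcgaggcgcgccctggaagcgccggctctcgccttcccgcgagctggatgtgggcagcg
Hhip: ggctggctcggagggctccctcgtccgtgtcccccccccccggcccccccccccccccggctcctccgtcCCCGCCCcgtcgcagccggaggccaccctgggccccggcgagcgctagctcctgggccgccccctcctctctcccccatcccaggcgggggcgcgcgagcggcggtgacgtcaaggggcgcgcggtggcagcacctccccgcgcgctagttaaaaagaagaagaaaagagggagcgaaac
Dhh had 9 CG dinucleotides, Ptch1 41 and Hhip 28, against a median of 6 over all 32851 windows. Dhh held 4 GC boxes, while Ptch1 and Hhip held 1 each, and 23.4% of all windows held at least 1. The Gli recognition sequence GACCACCCA was absent on both strands from all 7 members with a window (Gli1 had no entry), and 0.225% of all windows held it. Nor did these 3 windows hold AACAAT, a sequence bound by SOX factors, which 9.42% of all windows held on either strand. The NR5A1 sequence AAGGTCA, found in 4.08% of all windows, was likewise not among their letters. No match says only that these letters are not in these bases.

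Levels of different genes were compared on the deposited FPKM, which is scaled for gene length. In WT testes the order was Gli1 (58.8 ± 1.45 FPKM, SD, n = 3), Dhh (57.4 ± 5.56), Ptch1 (45.7 ± 8.29), Smo (34.8 ± 3.59), Gli2 (17.1 ± 3.30), Sufu (11.3 ± 0.829), Gli3 (7.81 ± 1.71) and Hhip (6.89 ± 1.72 FPKM). The ranges of Gli1 and Dhh, of Dhh and Ptch1, of Ptch1 and Smo, and of Gli3 and Hhip overlapped between WT libraries, while the steps from Smo to Gli2, Gli2 to Sufu and Sufu to Gli3 did not. In cKO testes Gli1 stayed first at 60.1 ± 9.69 FPKM and Smo came next at 41.2 ± 4.38 FPKM. Ptch1 came next at 25.2 ± 2.60 FPKM, and the mean of Dhh now stood below it, at 19.6 ± 5.85 FPKM. In cKO library 2, however, Dhh (26.0 FPKM) was above Ptch1 (22.7 FPKM). By their means Gli2 (15.6 ± 3.61 FPKM), Sufu (12.8 ± 0.445), Gli3 (7.83 ± 1.38) and Hhip (2.35 ± 0.477 FPKM) kept their places. The ranges of Ptch1 and Dhh, of Dhh and Gli2, and of Gli2 and Sufu overlapped between cKO libraries.

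Levels below are in CPM, that is, counts over the TMM-scaled total of the library, and compare a gene only with itself. Fold changes are cKO against WT.

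Dhh, the ligand, stood at 138, 149.8 and 124 CPM in WT libraries 1, 2 and 3 and at 43.2, 62.0 and 34.8 CPM in cKO libraries 1, 2 and 3. The highest cKO library was therefore at less than the lowest WT library, with no overlap between groups, as was so for 21.6% of all tested genes. Its log2 fold change was -1.56 (SE 0.190, 95% interval -1.97 to -1.14, edgeR adjusted p = 0.000966). With 1 library left out at a time or another test or scaling, 16 of 16 alternative fits called Dhh lower, at log2 fold changes of -1.81 to -1.38. In the C57BL/6NJ assembly, whose coordinates the count table gives, Dhh lies on chromosome 15, positions 104404599 to 104412243, minus strand, and no other listed gene overlaps it.

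Ptch1, the receptor, stood at 315, 407 and 451 CPM in WT and at 238, 193 and 212 CPM in cKO. The groups did not overlap, although WT library 1 lay nearer to the cKO libraries than the other WT libraries did. The log2 fold change was -0.87 (SE 0.152, 95% interval -1.20 to -0.53, edgeR adjusted p = 0.00947). The call was lost without cKO library 3 (-0.86, edgeR adjusted p = 0.0701), without WT library 2 (-0.83, edgeR adjusted p = 0.0522) and without WT library 3 (-0.75, edgeR adjusted p = 0.0607), and was kept in the other 13 of 16 alternatives. Ptch1 lies on chromosome 13 from 65546551 to 65612340, minus strand.

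Hhip, which binds Hedgehog ligands at the cell surface and limits their reach, had the fewest counts of the 8, with 409, 520 and 707 counts in WT and 208, 136 and 210 counts in cKO. These were 25.5, 34.6 and 42.3 CPM in WT against 13.7, 9.04 and 12.1 CPM in cKO, again without overlap. The log2 fold change was -1.55 (SE 0.220, 95% interval -2.04 to -1.07, edgeR adjusted p = 0.0025), and 16 of 16 alternatives called it lower. Hhip lies on chromosome 8 from 83752517 to 83853517, minus strand.

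Gli1, the Gli factor that acts mainly as an activator, stood at 214, 222 and 218 CPM in WT and at 245, 181 and 241 CPM in cKO. Of the cKO libraries, 1 lay below and the other two above all WT libraries. The log2 fold change was 0.03 (SE 0.136, edgeR adjusted p = 0.947), and its 95% interval of -0.27 to 0.32 did not reach the size of the Ptch1 change. None of 16 alternatives called Gli1. On the opposite strand Arhgap9 overlaps the Gli1 gene, and it had 344 counts over the 6 libraries against 21035 for Gli1. Gli1 lies on chromosome 10 from 135357971 to 135369716, minus strand.

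The remaining transducers were not called in any of 16 alternatives. Smo, the signal transducer that Ptch1 restrains, stood at 179, 213 and 180.3 CPM in WT and at 253, 210.1 and 212 CPM in cKO, with overlap (log2 fold change 0.24, 95% interval -0.04 to 0.52, edgeR adjusted p = 0.409). Sufu, the cytoplasmic brake on Gli proteins, stood at 73.5, 80.0 and 84.5 CPM in WT and at 87.1, 89.0 and 93.2 CPM in cKO. Its groups did not overlap but lay close together (0.18, 95% interval -0.07 to 0.43, edgeR adjusted p = 0.492). Gli2, the main activator of the first response, stood at 104, 107 and 145 CPM in WT and at 125, 79.0 and 119 CPM in cKO (-0.14, 95% interval -0.55 to 0.27, edgeR adjusted p = 0.776). Gli3, which in the absence of ligand is cut to a repressor, stood at 65.3, 66.9 and 94.6 CPM in WT and at 85.2, 60.4 and 81.3 CPM in cKO (0.00, 95% interval -0.39 to 0.39, edgeR adjusted p = 0.9996). For Gli2 and Gli3 the spread within each group exceeded the difference between them. In the C57BL/6NJ coordinates Smo lies on chromosome 6 from 28338965 to 28370474 (plus strand), Sufu on chromosome 19 from 47231791 to 47327294 (plus), Gli2 on chromosome 1 from 126210418 to 126437378 (minus) and Gli3 on chromosome 13 from 13131892 to 13412091 (plus).

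**Figure D1:**
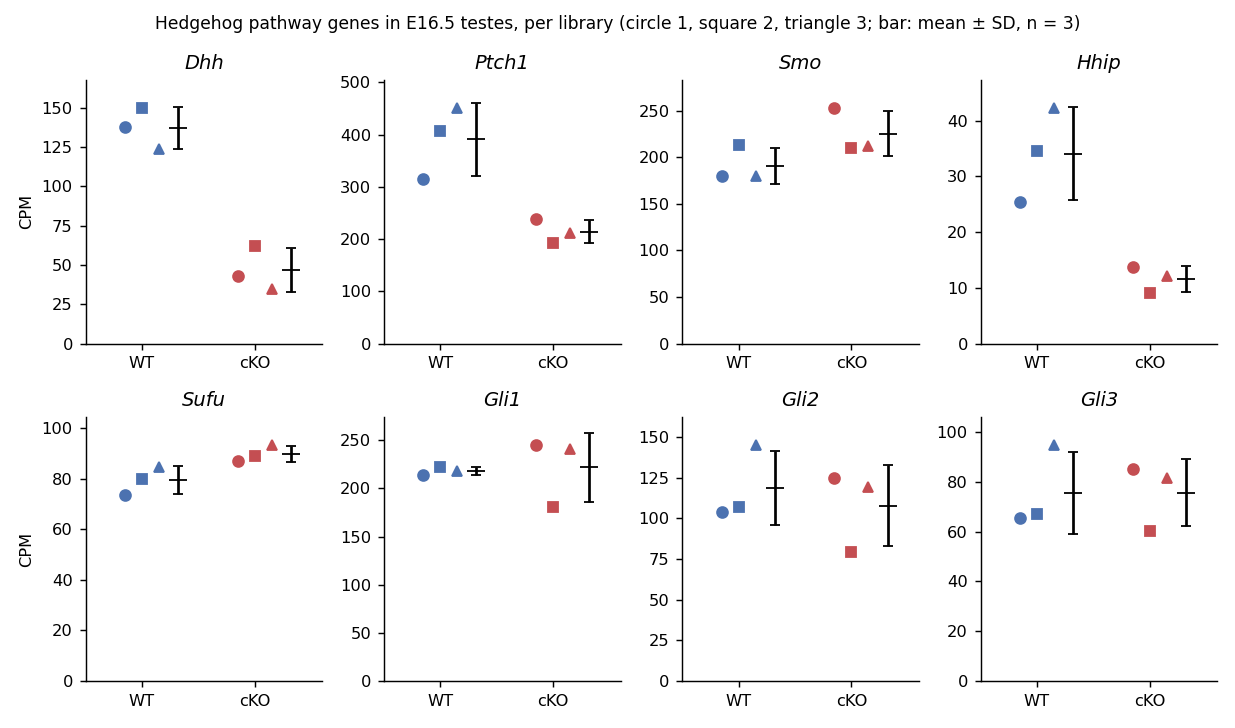
Level of each of the 8 genes (CPM, linear axis from 0) in the 3 WT and 3 cKO libraries, with circle, square and triangle for libraries 1, 2 and 3 and the bar for mean ± SD. For Dhh, Ptch1 and Hhip all cKO points lie below all WT points, whereas the Gli1 points of cKO lie on both sides of the WT points.

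The cKO libraries differed among themselves in one further way. Library 2 had the highest Dhh of the group (62.0 CPM) and the lowest Ptch1, Hhip, Gli1, Gli2, Gli3 and Smo. Among WT libraries, library 3 had the lowest Dhh (124 CPM) and the highest Ptch1, Hhip, Gli2, Gli3 and Sufu. With 3 libraries a group these are descriptions only.

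Since Ptch1 and Gli1 are both used as reports of the pathway, their ratio was taken within each library, where library scaling cancels. The ratios to Gli1 and those of Ptch1 and Hhip to Leydig markers were chosen after the values were seen. The log2 ratio of Ptch1 to Gli1 was 0.56, 0.87 and 1.05 in WT and -0.04, 0.10 and -0.19 in cKO. On average it was 0.87 lower in cKO (exact two-sided permutation p = 0.1, the smallest that 3 against 3 libraries allow, so this design cannot pass 0.05). The log2 ratio of Hhip to Gli1 was -2.70 ± 0.352 in WT and -4.25 ± 0.090 in cKO, a fall by 1.55 without overlap (exact permutation p = 0.1). Over the 8 ratios computed in all, each p of 0.1 became 0.114 after Benjamini-Hochberg adjustment.

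Markers of the cells that make the ligand were lower too. Of 16 Sertoli cell markers 14 were lower and none higher, and their summed level was 2676 to 3622 CPM in WT and 841 to 1326 CPM in cKO. The 2 not called were Cldn11 (0.33) and Fgf9 (0.29), named after their values were seen. Their median log2 fold change was -1.67, against 0.00 over all tested genes. Dhh lay in the middle of them, with 8 markers below it (down to -3.31 for Hsd17b3, an enzyme of testosterone synthesis) and 8 above it. The list was chosen with earlier results of these data known. The count, the median, this rank and the ratio of Dhh given below therefore depend on that choice. Amh, the hormone that removes the Müllerian duct, was 2.41 lower on the log2 scale (edgeR adjusted p = 0.00382), and the abundant secreted protein gene Clu 0.86 lower (edgeR adjusted p = 0.0124). Set against the mean log2 level of the 16 markers, Dhh stood at 0.72 ± 0.105 in WT and 0.85 ± 0.222 in cKO, with overlap (difference 0.12, exact permutation p = 0.4). The part that Sertoli cell number had in the fall of Dhh was not tested.

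No marker of the cells that receive the signal was called lower. Of 11 markers of fetal Leydig cells, edgeR called 2 higher, DESeq2 4 and limma-voom 3, and none of them called any lower. The median log2 fold change was 0.39, with 10 of the 11 positive. The 2 called by edgeR were Fdx1 and Por, which pass electrons to steroid-producing enzymes, at 0.85 (edgeR adjusted p = 0.00732) and 0.59 (edgeR adjusted p = 0.0442). The summed level of the list was 4947 to 5941 CPM in WT and 6544 to 8520 CPM in cKO, and Cyp17a1 and Cyp11a1, its most abundant enzymes, were not called by edgeR with all libraries (0.25 and 0.59, edgeR adjusted p = 0.553 and 0.0636). Cyp11a1 was called higher in 4 of 16 alternatives. Gli1 itself was not called (log2 fold change 0.03), so its ratio to these 11 markers mostly reflected the markers. Their shift also entered the ratios of Ptch1 and Hhip. Relative to these 11 markers the log2 level of Gli1 was -0.55 ± 0.120 in WT and -0.94 ± 0.180 in cKO, without overlap (difference -0.39, exact permutation p = 0.1). For Ptch1 it was 0.28 ± 0.338 and -0.98 ± 0.042 (exact permutation p = 0.1), and for Hhip -3.25 ± 0.445 and -5.19 ± 0.209 (exact permutation p = 0.1).

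Of 9 markers of peritubular myoid cells, Des, the desmin gene, rose (0.72, edgeR adjusted p = 0.0276) and none fell, with a median of 0.02 (DESeq2 called 2 higher). Their summed level was 1146 to 1343 CPM in WT and 1231 to 1394 CPM in cKO, and Acta2, the smooth muscle actin gene, was not called (-0.19, edgeR adjusted p = 0.634). The log2 level of Ptch1 relative to these markers was 2.13, 2.63 and 2.53 in WT and 1.58, 1.44 and 1.34 in cKO (exact permutation p = 0.1). Of 15 markers of interstitial progenitors edgeR called 1 higher, DESeq2 6 and limma-voom 1, and none of them called any lower. Of these markers 14 had a positive log2 fold change and 11 an unadjusted edgeR p under 0.05 (15.8% of all tested genes), with a median of 0.44 and a summed level of 9294 to 14707 CPM in WT and 13469 to 21633 CPM in cKO. Most of that sum came from Col1a1 (mean 4954 CPM in WT, 8047 CPM in cKO) and Col3a1 (3637 and 5347 CPM). Neither was called (edgeR adjusted p = 0.274 and 0.25). The calls of Fdx1, Por and Des were lost in 4, 7 and 6 of 16 alternatives.

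**Figure D2:**
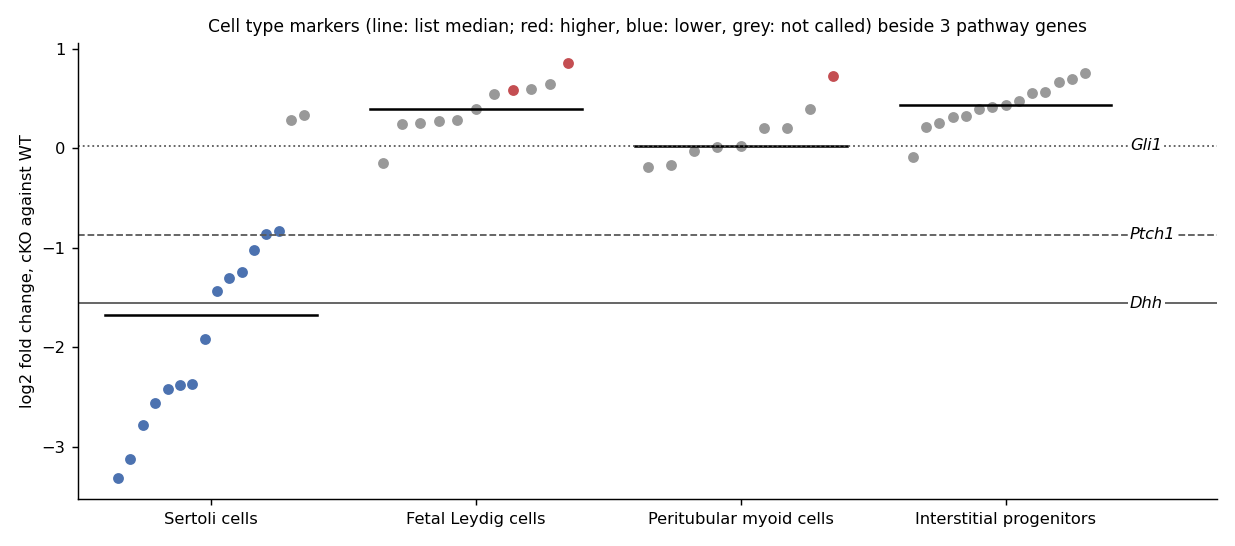
Log2 fold change (cKO against WT) of tested markers of 4 cell types (1 of the 15 interstitial progenitor markers is not plotted, while the median is that of all 15), ordered by value, with the list median as a black line and Dhh, Ptch1 and Gli1 as horizontal lines. Dhh falls among the Sertoli cell markers, while Ptch1 lies below every marker shown of the fetal Leydig, peritubular myoid and interstitial progenitor lists.

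Other cells, of the organ or of tissues beside it, were checked for their part in the same RNA. Of 7 pregranulosa cell markers, which belong to the fetal ovary, 3 were higher (Wnt4, Runx1 and, outside the naming rule, Foxl2), with a summed level of 103 to 125 CPM in WT and 288 to 347 CPM in cKO. Most of that sum came from Wnt4 (mean 72.8 CPM in WT, 238 CPM in cKO), and 4 of the 7 were not called. All 6 markers of mesonephros and ducts had a positive log2 fold change, with a median of 0.56 and a summed level of 28.2 to 35.2 CPM in WT and 43.9 to 64.9 CPM in cKO, and Emx2 was the 1 called higher. Kdr was the 1 higher among 6 endothelial markers and Pnmt the 1 lower among 5 tested adrenal markers. By edgeR no call fell on the 8 tested germ cell markers or on the 7 of macrophages and leukocytes (2 and 1 at an unadjusted p under 0.05, as had 15.8% of all tested genes, 1 and 0 by DESeq2 and 0 and 0 by limma-voom). Of the 8 germ cell markers 1 had a positive log2 fold change, with a median of -0.28. Of the 7 markers of macrophages and leukocytes 5 had one, with a median of 0.28. No marker in these lists was at 0 in all 6 libraries. Csnk1a1 itself had 372 ± 24.0 CPM in WT libraries against 393 ± 14.1 CPM in those of cKO (log2 fold change 0.08, edgeR adjusted p = 0.798). Its count covers the whole gene in the whole organ and does not check the labels. Library totals were 15092619 to 17431546 counts.

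Beyond the 8 genes, 62 further genes of the pathway were tested from 5 lists of ligand handling, co-receptors, cytoplasmic regulators, kinases and targets. Of these 3 were higher and 1 lower, or 6.45%, where 3.35% of all tested genes were called in either direction, and their median log2 fold change was 0.08.

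The higher ones included co-receptors. In the list of receptor relatives and co-receptors 2 of 7 genes were called higher, where 1.5% of all tested genes were. An unadjusted p under 0.05 was found for 3 of the 7, beside 15.8% of all tested genes. Gas1 and Cdon, which sit in the membrane beside Patched and help it bind the ligand, both rose. Gas1 stood at 129.9, 162 and 128 CPM in WT and at 211, 261 and 233 CPM in cKO (log2 fold change 0.75, SE 0.135, edgeR adjusted p = 0.0114). Cdon stood at 258, 304 and 238 CPM in WT and at 403, 358 and 406 CPM in cKO (0.55, SE 0.131, edgeR adjusted p = 0.0472). In both, all cKO libraries lay above all WT libraries. Boc, the close relative of Cdon, was likewise apart, at 99.9, 118 and 113 CPM in WT and 167, 123 and 177 CPM in cKO, but was not called by edgeR (0.50, edgeR adjusted p = 0.11). Beside them, the interstitial progenitor markers had a median log2 fold change of 0.44, with 14 of 15 positive, and their part in the levels of Gas1, Cdon and Boc was not tested. The call of Gas1 was lost in 3 of 16 alternatives (without cKO library 3, WT library 1 or WT library 3, adjusted p up to 0.0838) and that of Cdon in 8 of 16 (adjusted p up to 0.256, without WT library 3), and Boc was called in 3 of 16. Lrp2, Gpc3 and Gpc6, of the same list, were not called.

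None of 8 genes for other Hedgehog ligands and for ligand processing was called by DESeq2, limma-voom or edgeR, with 3 at an unadjusted p under 0.05, where 15.8% of all tested genes had such a p. Shh, Sonic hedgehog, was scarce at 1.53 ± 0.588 CPM in WT and 3.57 ± 0.804 CPM in cKO (log2 fold change 1.23, edgeR adjusted p = 0.152), and Ihh, Indian hedgehog, stood at 2.22 and 2.05 CPM (-0.10, edgeR adjusted p = 0.931). Scube3, which helps release the ligand, stood at 91.5 ± 16.2 and 121 ± 6.49 CPM (0.40, edgeR adjusted p = 0.182). Disp2, a relative of the ligand-exporting Dispatched 1, stood at 2.05 ± 0.496 and 0.702 ± 0.437 CPM (-1.52, edgeR adjusted p = 0.214). Hhat, which attaches palmitate to the ligand, was not called (0.01, edgeR adjusted p = 0.982). 

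Among 20 tested regulators in the cytoplasm and primary cilium, DESeq2, limma-voom and edgeR called none, and 4 had an unadjusted p under 0.05, beside the 15.8% of all tested genes. The smallest p-values were those of Evc (0.38, edgeR adjusted p = 0.111), which acts with Smoothened at the base of the cilium, Gpr161 (0.42, edgeR adjusted p = 0.162), a ciliary receptor that restrains the pathway, and Evc2 (0.44, edgeR adjusted p = 0.291). Among 16 kinases and ubiquitin ligases that act on Gli proteins, again none was called by any of these tools, with 2 at an unadjusted p under 0.05 (15.8% of all tested genes). Csnk1g1, a relative of CK1α, stood at -0.39 (edgeR adjusted p = 0.123) and Spop, which targets Gli proteins for breakdown, at 0.32 (edgeR adjusted p = 0.291).

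Of 12 genes listed as Hedgehog targets beside the 8, 1 fell and 1 rose, where 1.84% of all tested genes were lower and 1.5% higher. An unadjusted p under 0.05 was found for 4 of the 12, beside 15.8% of all tested genes. Mycn, a growth-promoting transcription factor gene, went from 47.9, 57.2 and 48.3 CPM in WT to 30.6, 33.6 and 25.5 CPM in cKO (log2 fold change -0.77, SE 0.147, edgeR adjusted p = 0.0146). Ccnd1, the cyclin D1 gene, went the other way, from 19.1, 21.4 and 20.4 CPM to 33.4, 32.8 and 28.8 CPM (0.64, SE 0.142, edgeR adjusted p = 0.0329). Neither is particular to Hedgehog signalling, and Ccnd1 is also a known target of Wnt signalling. The cause of either change was not tested. Their calls were lost in 4 and 7 of 16 alternatives, at adjusted p up to 0.0914 (without cKO library 3) and 0.166 (without WT library 1). No call fell on Sfrp1 (0.53, edgeR adjusted p = 0.189), Ccnd2 (0.36, edgeR adjusted p = 0.224) or Bcl2 (0.32, edgeR adjusted p = 0.35).

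**Figure D3:**
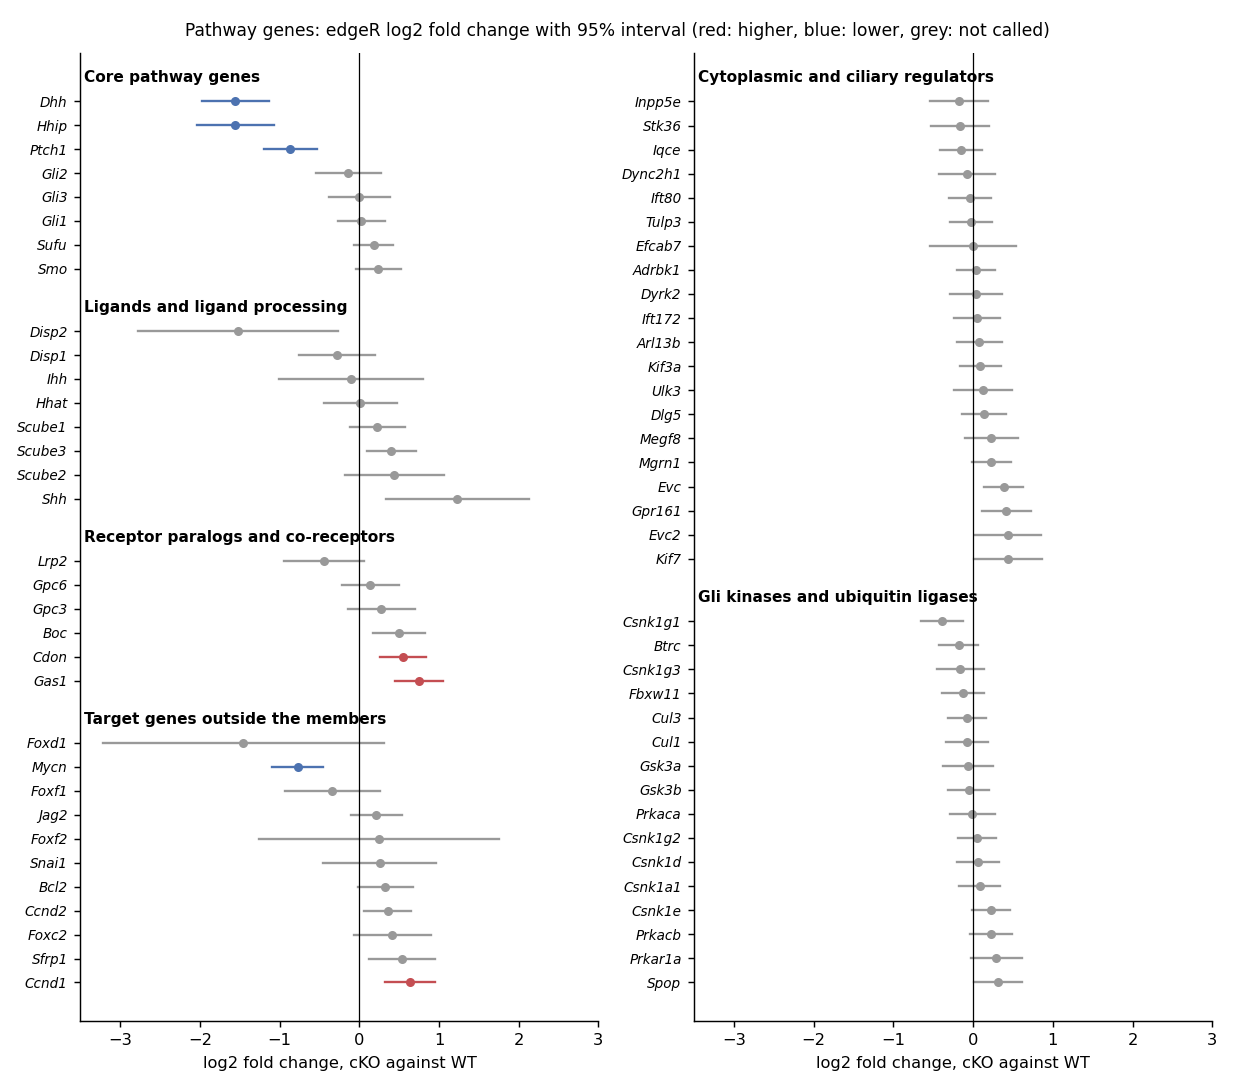
Log2 fold change (cKO against WT) with its 95% interval for the 8 core genes and further pathway genes in 5 lists. Coloured are the genes called by edgeR, which are Dhh, Hhip, Ptch1 and Mycn among the lower and Gas1, Cdon and Ccnd1 among the higher.

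**Figure D4:**
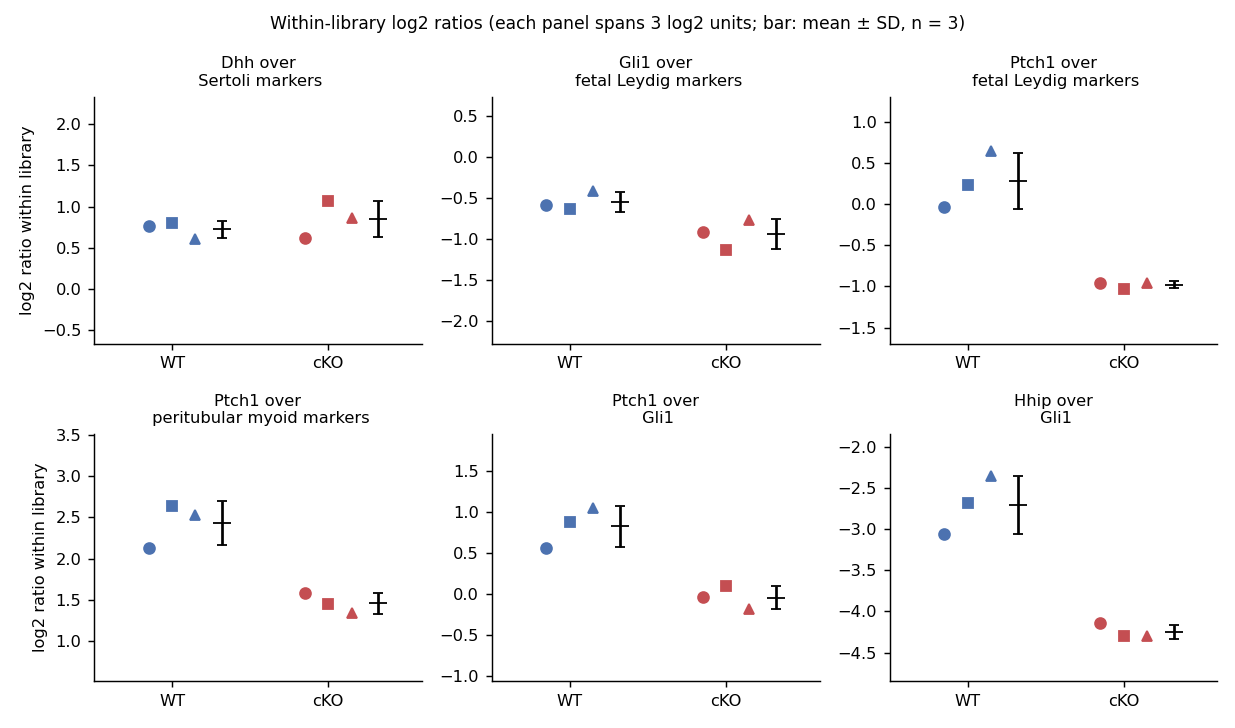
Log2 ratio within each library for 6 of the 8 ratios, each panel spanning 3 log2 units, with the bar for mean ± SD. The groups overlap for Dhh over Sertoli cell markers and are apart in the other panels.

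The genes most like Dhh and Ptch1 in their course over the 6 libraries were sought among the 10724 protein-coding genes that averaged 10 CPM or more, by the root mean square difference of log2 CPM after each gene was centred on its own mean. Nearest to Dhh were Arhgdig (0.06), Ttyh1 (0.10) and Islr2 (0.12), which differed between groups by -1.57, -1.46 and -1.36 on the log2 scale. Nearest to Ptch1 were Ptprf (0.06), Dag1 (0.08) and Folr1 (0.08), at -0.83, -0.80 and -0.86. A shared difference between the groups by itself brings genes near in this measure. How much of the likeness it made up was not computed.

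**Figure D5:**
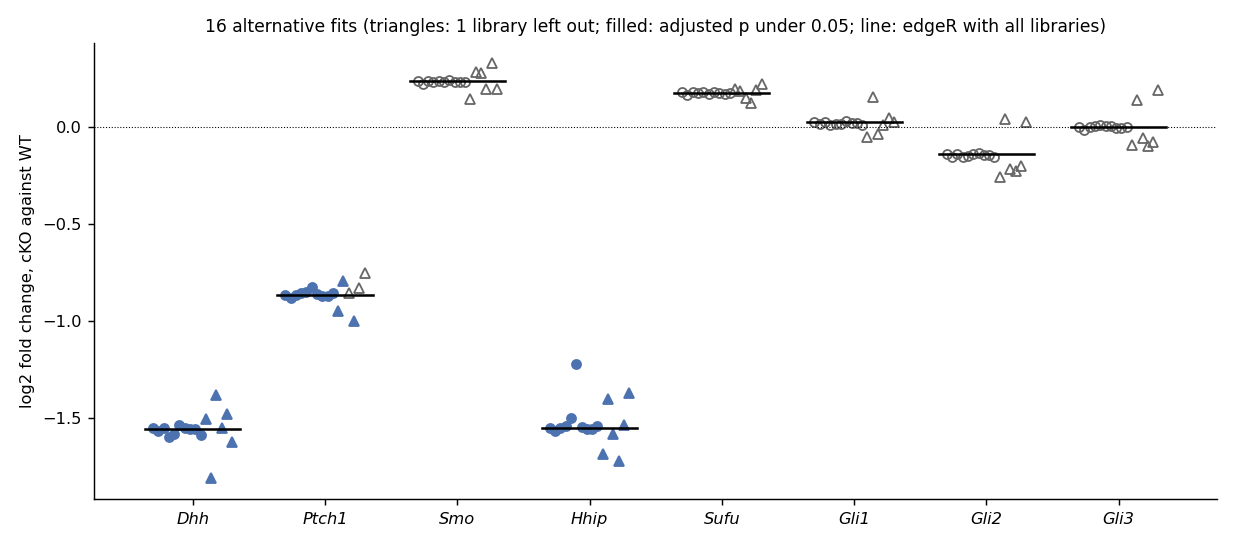
Log2 fold change of each of the 8 genes in 16 alternative fits (triangles for 1 library left out, filled symbols for adjusted p under 0.05), with a line at the value from all libraries. Dhh and Hhip are called in all 16, Ptch1 in 13, and the other genes in none.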

How the data were processed

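Polyadenylated RNA of 6 whole testes was sequenced on an Illumina NovaSeq, per the labels' protocols. The submitters' processing notes name HISAT2 2.0.5 and GRCm38, with no role. The gene identifiers in the deposited files are those of the C57BL/6NJ annotation (41096 of 42747 rows), so coordinates are given in that assembly. The sources used here do not name the counting tool, strand setting or trimming. The authors deposited counts, whole numbers per gene and not normalised, and FPKM, scaled by gene length and by a denominator per library of 0.968 to 1.05 times its count total. The other 1651 rows are loci with an identifier of the authors' own and no gene name; they hold 0.713% to 0.961% of counts and were kept in totals and tests.

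From the counts, 18383 genes passing filterByExpr were fitted with edgeR 4.0.16 (R 4.3.3; TMM, glmQLFit, glmQLFTest, no covariate, Benjamini-Hochberg, threshold 0.05). SEs are the absolute log2 fold change over the square root of F. Median counts of tested genes were 282 to 329 per library, and the biological coefficient of variation was 19.7%. Log2 CPM for ratios used a prior count of 2. Ratios were compared with an exact two-sided permutation test.

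The members and lists were chosen with earlier results of these data known. Of 167 listed symbols 163 were matched, 1 through a RefSeq synonym. Named beside the members were Csnk1a1, all called genes and up to 3 others with the smallest p of each pathway list, 2 most abundant and 2 smallest-p genes per cell type list, and the 3 most like Dhh and Ptch1. Not all of them are printed, and some results, 1 of the 8 ratios among them, are not reported here. Lists were described by counts and medians, with no set test. On data simulated for the cKO against WT comparison (18383 genes) the fit called 63.3% of 98 genes changed by 1 and 93.7% of 95 changed by 2 on the log2 scale, and 14 unchanged genes among 165 calls. Alternatives were RLE and upper-quartile scaling, DESeq2 1.42.0, limma-voom and limma-trend (limma 3.58.1) on log2(FPKM + 0.1) and log2(FPKM + 1), other filters, the replicate block and each library left out.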

Additional observations from a re-analysis of the deposited data

How the results depend on the processing

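Dhh, Hhip and Ptch1 were the members called by edgeR with all libraries, and 3 members were also called in 13 of 16 alternatives, 2 (Dhh and Hhip) in the other 3, so that the count ran from 2 to 3 with 1 library left out. The number of called genes overall was 615, against 1101 by DESeq2 and 1264 without a low-count filter, and 372 and 397 by limma-trend on FPKM with a pseudocount of 0.1 or 1. With 1 library left out it ran from 272 to 723. Named genes outside the members were called 23 times, and 9 to 25 times with 1 library left out. The cause of these shifts was not tested, beyond the smaller number of samples or the number of genes tested.

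Values near 0 changed sign. Gli1 went to -0.048 and -0.03 without cKO library 1 or 3, Gli2 to 0.044 and 0.03 without cKO library 2 or WT library 3 (-0.257 at the lowest, without cKO library 1), and Gli3 to -0.012 with upper-quartile scaling, -0.00267 with a mean of at least 1 CPM, -0.00326 with protein-coding genes only, -0.09 and -0.05 without cKO library 1 or 3, and -0.093 and -0.07 without WT library 1 or 2 (0.195 at the highest, without WT library 3). Dhh relative to Sertoli markers was -0.0449 with the summed CPM of the list in place of its mean log2 level, and ran from 0.02 to 0.24 with 1 library left out. The other ratios kept their sign under every alternative run for them. The median change of all tested genes stayed within 0.05 of 0 under each scaling, test and filter.

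Replicate numbers are shared between the groups, but deviations from the group means correlated at 0.02, 0.18 and 0.03 for the same numbers, and cKO library 1 correlated more with WT library 3 (0.16) than with its own number. The samples were therefore not treated as pairs. With the replicate number as a block 696 genes were called, the same 3 members among them.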
